A study of Homo sapiens and Mus musculus with 57 samples.

Results

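CT26 and MC38 are known as mouse colon carcinoma lines, and their untreated state was compared in 6 of the 57 libraries of the series: 3 of CT26 DMSO and 3 of MC38 DMSO, chosen by the line and treatment that the labels give. Both groups were cultured tumour cells that received the vehicle DMSO for 16 h, as controls for inhibitors of the SUMO-activating enzyme. Other libraries of the same lines received 1 uM TAK-981 for 16 h (CT26 TAK-981 and MC38 TAK-981, 3 each). The DMSO libraries of the other mouse lines, A20 (B cell lymphoma) and B16F10 (melanoma), were used to place the difference (3 each). Each group came from 1 cell line, so line, tumour and mouse of origin cannot be told apart within the 6 libraries.

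CT26 and MC38 are both carcinogen-induced colon tumours that are transplanted into mice of the strain they came from. Both are standard models for tests of immune therapy. CT26 arose in a BALB/c mouse and MC38 in a C57BL/6 mouse, which differ at many loci, the major histocompatibility complex included. A20 is also of BALB/c origin and B16F10 of C57BL/6 origin. Tumour type and strain are general knowledge of the lines and are not in the labels.

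The files list mouse genes by Ensembl identifier and pair no identifier with a name, and 0 of 43432 identifiers matched the name tables used here. Results are therefore given as counts over genes, with values for 4 identifiers. The colon origin of the lines was not checked against marker genes for the same reason.

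Untreated CT26 libraries held 17226223 to 24127322 estimated counts and untreated MC38 libraries 20517634 to 24216296. Fewer genes had a nonzero count in CT26 (16033 to 16597) than in MC38 (17371 to 17720). The order was the same for genes with at least 1 CPM (counts relative to the library total after TMM scaling), a threshold that does not move with depth: 11270 to 11306 genes in CT26 against 11546 to 11602 in MC38. These ranges did not overlap, but with 3 libraries each no exact test could go below p = 0.1. Aligner and build are not stated, so whether reads of both lines were assigned to genes equally well could not be checked. The same limit holds for the counts of genes that follow, those with no count in a line included.

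Most measured genes differed between the lines, and most of these differences were small. Of 13029 genes tested, 5129 (39.4%) were higher and 5361 (41.1%) lower in CT26 than in MC38, together 80.5% (edgeR quasi-likelihood test, Benjamini-Hochberg adjusted p under 0.05). The 3 CT26 and 3 MC38 libraries did not overlap in 10639 genes, 81.7% of those tested. The labels do not say that the wells of a group were separate cultures, so this test measures the spread between these wells, which may be technical. That spread was small: the standard error of the log2 difference had a median of 0.0572 over genes that reached 10 CPM in CT26 or MC38. The size of a called difference had a median of 0.70 on the log2 scale, with quartiles of 0.37 and 1.64.

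Differences of 2-fold or more were called in 29.7% of the genes tested. Smaller ones made up 6622 of the 10490 calls, 3361 of them higher and 3261 lower in CT26. Between 2-fold and 4-fold, 758 genes were higher and 844 lower in CT26. Between 4-fold and 16-fold, 432 were higher and 442 lower. At 16-fold or more, 578 were higher and 814 lower, together 10.7% of the genes tested. The numbers beyond 16-fold depend on how low values are treated. Without a filter on low counts, over 21418 genes tested, they were 857 higher and 1324 lower. On log2(FPKM + 0.1) they were 350 and 449. On log2(FPKM + 1) they were 113 and 89, where the excess of genes lower in CT26 turned round.

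**Figure D1:**
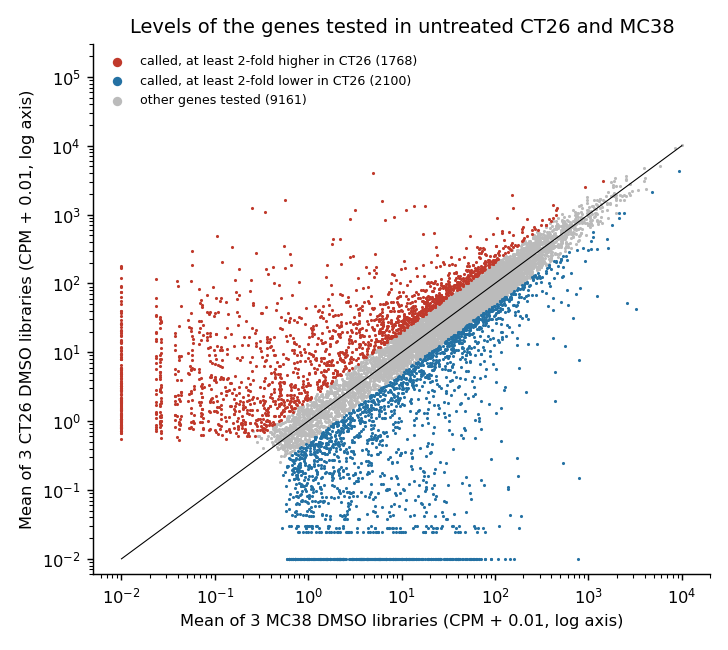
Mean level of each tested gene in the 3 CT26 DMSO libraries (vertical axis, CPM + 0.01, log scale) against the 3 MC38 DMSO libraries (horizontal axis, same scale). Red points are 1768 genes called and at least 2-fold higher in CT26, blue points 2100 called and at least 2-fold lower, and points on the lower or left edge are genes listed at 0 in a line.

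The plot of levels shows many genes at or near 0 in 1 line. Of the 578 genes at least 16-fold higher in CT26, 139 had no count in any MC38 DMSO library, and of the 814 at least 16-fold lower, 400 had no count in any CT26 DMSO library. A fitted fold of such genes depends on the tool's settings. Set against a floor of 3 counts over the 3 libraries of the lower line, 567 and 764 genes remained at 16-fold or more. Requiring at least 10 CPM in every library of one line and no count in the other, 35 genes were measured in CT26 alone of the pair and 118 in MC38 alone. At 100 CPM the numbers were 4 and 5.

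These genes took a small part of the RNA. Genes at least 16-fold higher in CT26 held 3.38 to 3.46% of counts in CT26 DMSO libraries against 0.0323 to 0.0327% in MC38 DMSO libraries. Genes at least 16-fold lower in CT26 held 0.0358 to 0.0374% in CT26 against 2.56 to 2.60% in MC38. For differences of 2-fold or more the shares were 12.0 to 12.2% in CT26 against 3.04 to 3.11% in MC38 for the genes higher in CT26, and 3.35 to 3.4% in CT26 against 12.0% in each MC38 library for the genes lower in CT26. The genes were chosen on these libraries, so the shares describe the calls and do not test them.

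Large differences were most frequent among tested genes of low mean level over both lines. By mean FPKM over the 6 libraries, which scales a level by gene length, 30.5% of 1936 genes under 1 FPKM were called at 16-fold or more. The share was 14% of 4400 genes at 1 to 10 FPKM, 2.57% of 5789 genes at 10 to 100 FPKM, and 4.09% of 904 genes at 100 FPKM or more. Among the most abundant class, 29 genes were at least 16-fold higher and 8 at least 16-fold lower in CT26. Under 1 FPKM the balance was the other way, with 206 higher and 384 lower. The mean is taken over both lines, so a gene that is low in either line moves to a lower class. The filter on low counts can also keep a weak gene that only a single line carries. The classes are therefore not independent of the difference, and these shares describe the calls. Whether weak expression itself goes with large differences was not tested. Genes of all lengths took part: the share called at 2-fold or more was 28.5% in the shortest of 4 equal classes of length and 30.5% in the longest.

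The 4 identifiers of highest mean CPM among the calls of 16-fold or more, 2 in each direction, were ENSMUSG00000091957, ENSMUSG00000029661, ENSMUSG00000044533 and ENSMUSG00000026043.

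ENSMUSG00000091957 had 4087, 4019.6 and 4064 CPM in the CT26 DMSO libraries, against 5.05, 5.23 and 4.64 CPM in the MC38 DMSO libraries. All CT26 libraries were far above all MC38 libraries. The log2 difference was 9.67 (SE 0.0591, adjusted p = 5.04e-20 by edgeR). Per length it was the 5th most abundant gene of CT26, at 4106 FPKM, and ranked 8419 in MC38, at 5.12 FPKM.

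ENSMUSG00000044533 had the opposite pattern, with 41.9, 42.6 and 43.8 CPM in CT26 against 3156, 3256 and 3301 CPM in MC38, and no overlap. The log2 difference was -6.24 (SE 0.0479, adjusted p = 3.9e-19 by edgeR). It was the 10th most abundant gene of MC38 by FPKM. Both of these identifiers had fractional counts, which arise where reads that match several genes are divided among them, so their counts are uncertain. For these identifiers a difference in expression and a difference in how reads were assigned cannot be told apart, and both log2 differences could be either. Summed, they gave 4099 ± 33.8 CPM in CT26 and 3242 ± 74.2 CPM in MC38 (SD, n = 3), so the sum differed far less than either part. Each was chosen as the most abundant call of 16-fold or more in its direction. How far that choice brings the sums near each other was not tested, so the sums are a description. In A20 DMSO and B16F10 DMSO, which the choice did not use, the sums were 3002 ± 149.3 and 2061 ± 151.2 CPM (SD, n = 3). The files do not say whether these loci are copies of one another.

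ENSMUSG00000029661 had 1821, 1650.4 and 1432 CPM in CT26 against 0.698, 0.428 and 0.543 CPM in MC38, which rest on 17, 9 and 11 counts. The lowest CT26 library was above the highest MC38 library by a wide margin. The log2 difference was 11.49 (SE 0.134, adjusted p = 1.56e-17 by edgeR). Its counts were whole in all 6 libraries, to within 0.05 of a count.

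ENSMUSG00000026043 had 46.8, 48.8 and 59.2 CPM in CT26 against 2636, 2501 and 2588 CPM in MC38. The groups did not overlap, and CT26 kept a measurable level. The log2 difference was -5.65 (SE 0.0749, adjusted p = 6.77e-17 by edgeR), again from whole counts.

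**Figure D2:**
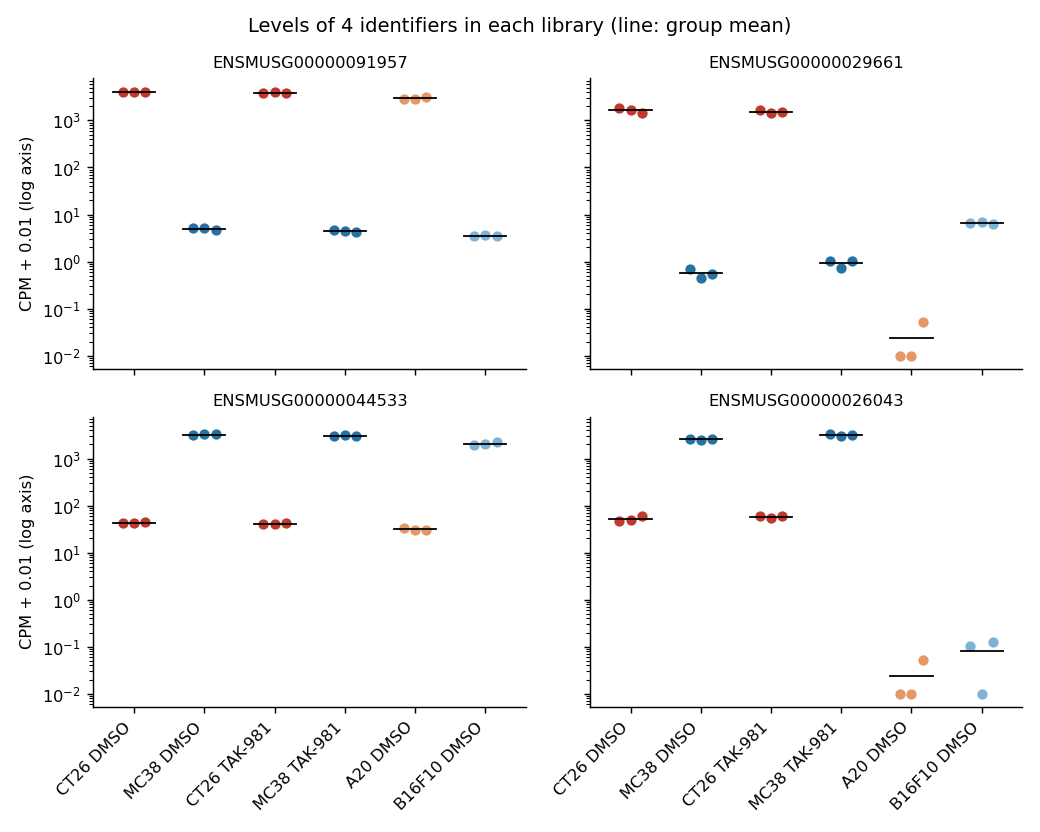
Level of the 4 identifiers in each library (CPM + 0.01, log axis) of CT26 DMSO, MC38 DMSO, CT26 TAK-981, MC38 TAK-981, A20 DMSO and B16F10 DMSO, with a line at the mean of 3 libraries. The upper left and lower left genes separate CT26 and A20 from MC38 and B16F10, while the genes on the right are high in 1 line of the 4.

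In the other mouse lines these genes followed different patterns. ENSMUSG00000091957 had 2905, 2865 and 3142 CPM in A20 DMSO and 3.54, 3.59 and 3.42 CPM in B16F10 DMSO, so A20 lay near CT26 and B16F10 near MC38. ENSMUSG00000044533 showed the reverse of this, with 34.1, 30.2 and 30.5 CPM in A20 and 1939, 2006 and 2228 CPM in B16F10. ENSMUSG00000029661 reached 6.15 to 6.82 CPM in B16F10 and at most 0.0422 CPM in A20. ENSMUSG00000026043 was at or below 0.114 CPM in both lines. The last 2 genes were thus high in CT26 alone and in MC38 alone among the untreated mouse lines.

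The pattern of the first pair was then counted over all genes, a step chosen after their values were seen. A gene was counted where every library of the higher lines was at least 4-fold above every library of the lower lines and had at least 1 CPM. On this count 138 genes were higher in CT26 and A20 than in MC38 and B16F10, and 276 were higher in MC38 and B16F10 than in CT26 and A20. The crossed split gave 121 genes higher in CT26 and B16F10 than in MC38 and A20, and 54 higher in MC38 and A20 than in CT26 and B16F10. The order of 138 and 121 depends on the fold required: at 2-fold the counts were 201 and 210, and at 16-fold 83 and 47. That of 276 and 54 was the same at each fold, with 415 and 115 at 2-fold and 182 and 23 at 16-fold. A further 354 genes were higher in CT26 than in the other 3 lines, and 317 higher in MC38 than in the other 3. The lines on each side of the first split share a strain of origin. With 2 lines a strain, strain and other features of the lines cannot be told apart.

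Genes with fractional counts were common in one of these sets. Of the 138 genes higher in CT26 and A20, 87 (63.0%) had a fractional count in at least 1 of the 12 libraries, more than 0.05 from a whole number. The share was 17.8% for the 276 genes higher in MC38 and B16F10, 12.4% and 22.2% for the crossed sets, and 16.4% and 17.0% for genes high in CT26 alone and in MC38 alone. Over all genes tested it was 25.4%. What part the division of reads between similar genes has in the 138 was not tested. In the TAK-981 libraries of the 4 lines the same rule gave 133 and 305 genes for the first split, of which 124 and 255 were the same genes as without the compound.

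**Figure D3:**
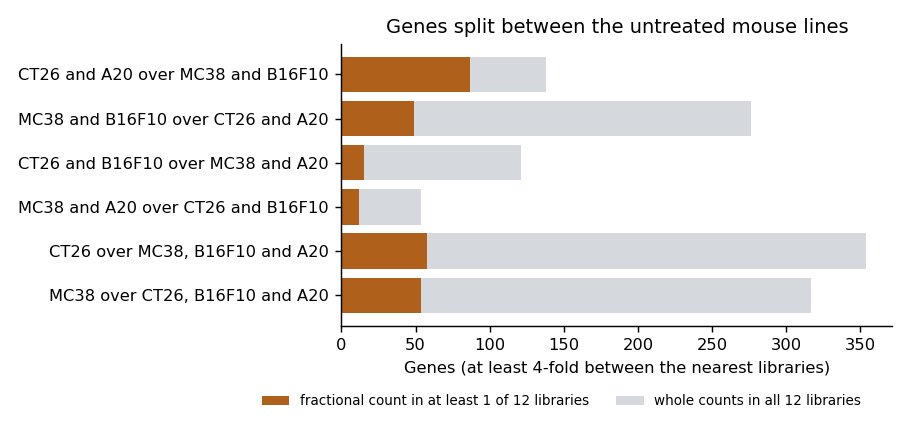
Number of genes (horizontal axis) that split the untreated mouse lines by at least 4-fold between the nearest libraries, for 6 splits (rows), with genes that have a fractional count in brown and genes with whole counts in grey. The top bar, CT26 and A20 over MC38 and B16F10, is mostly brown (87 of 138 genes), and each of the other bars is mostly grey.

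CT26 and MC38 were nearer to each other than to the other mouse lines. The share of counts assigned to different genes in 2 libraries, taken from the summed difference in CPM, was 19.4 to 20% over the 9 pairs of a CT26 and an MC38 library. Within a line it was 2.37 to 3.05% for CT26 and 2.01 to 2.99% for MC38. Between CT26 and B16F10 it was 25.8 to 26.5%, between MC38 and B16F10 23.2 to 23.5%, between CT26 and A20 27.0 to 28.5%, and between MC38 and A20 28.5 to 29.7%. None of these ranges overlapped that of CT26 with MC38. The difference between the lines was spread over many genes: the 10 genes of largest difference in mean CPM held 6.65% of it and the 100 largest 24.4%, and 593 genes were needed for 50% of it.

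**Figure D4:**
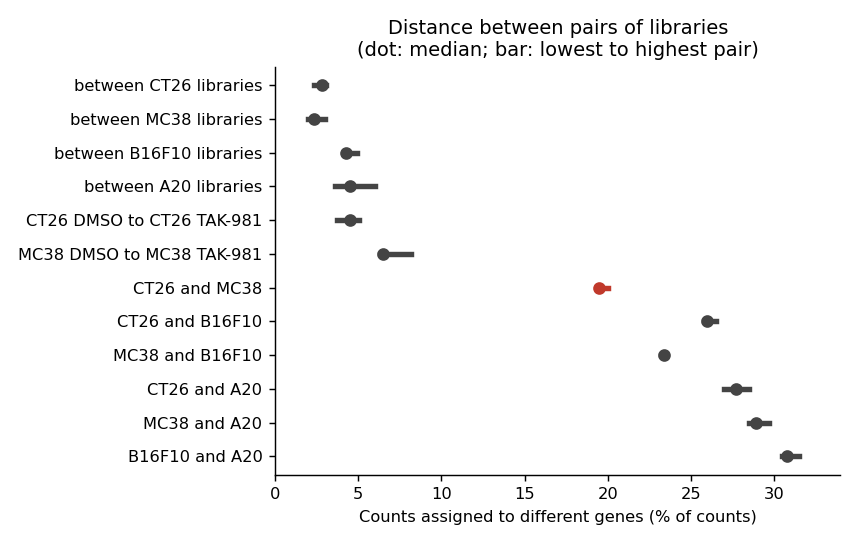
Share of counts assigned to different genes (% of counts, horizontal axis) for pairs of libraries within a line, of a line with and without TAK-981, and between untreated lines, with a dot at the median pair and a bar over the lowest to highest pair. The 9 pairs of CT26 and MC38 (red) lie at 19.4 to 20%, above all pairs within a line and below all pairs with B16F10 or A20.

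Counts of genes gave a like picture, with all 24 mouse libraries in one fit over 15332 genes. Between CT26 DMSO and MC38 DMSO 70.8% of genes were called by edgeR, 30.0% at 2-fold or more. Between CT26 and B16F10 the shares were 75.9% and 38.1%, and between MC38 and B16F10 74.8% and 35.6%. Between CT26 and A20 they were 77.3% and 43.6%, and between MC38 and A20 79.7% and 44.9%. These comparisons share libraries. The differences between their shares were not tested.

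Genes that separated the colon lines strongly were often low in the other lines. Of the 578 genes at least 16-fold higher in CT26, 280 had a mean under 1 CPM in both B16F10 DMSO and A20 DMSO, or 48.4%, and of the 814 at least 16-fold lower in CT26, 332 did, or 40.8%. Among all genes tested the share was 11.6%. Of the genes higher in CT26, 33.6% reached 1 CPM in B16F10 and 34.4% in A20. Of the genes lower in CT26 the shares were unequal, 53.7% in B16F10 and 26.7% in A20. A strong line difference rests by its definition on genes that are low somewhere, so these shares are given as a description.

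Libraries from wells treated with TAK-981 gave a second reading of the line difference that shares no library with the first. There 4888 genes (37.1%) were higher and 5243 (39.7%) lower in CT26 TAK-981 than in MC38 TAK-981, 76.8% of 13192 genes tested (edgeR, same threshold). Differences of 2-fold or more were called in 30.4% of them and of 16-fold or more in 10.5%. Of the DMSO calls of 2-fold or more, 1728 genes higher in CT26 were tested again, and 1680 were called in the same direction, 10 in the opposite one. Of 2011 lower in CT26, 1958 were called in the same direction and 2 in the opposite one. At 16-fold or more, 558 of 559 and 768 of 769 genes tested again were called in the same direction. The DMSO calls numbered 1768 higher and 2100 lower at 2-fold or more, and 578 and 814 at 16-fold or more. Those that failed the count filter in the TAK-981 libraries were not tested again. DMSO calls under 2-fold were called in the same direction for 81.5% of 6622 genes.

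The median log2 difference of the genes at least 2-fold higher in CT26 DMSO was 2.20 in TAK-981 and 2.34 in DMSO libraries, and of those at least 2-fold lower -2.56 in TAK-981 and -2.58 in DMSO libraries. For genes at least 16-fold higher it was smaller with TAK-981, 6.16 against 7.0 in DMSO libraries, and for those at least 16-fold lower -8.1 against -8.2. The genes were chosen on the DMSO libraries, and these differences in median were not tested. ENSMUSG00000091957 differed by 9.76 (SE 0.0858) and ENSMUSG00000044533 by -6.22 (SE 0.0715) on the log2 scale in the TAK-981 libraries. ENSMUSG00000029661 differed by 10.69 (SE 0.117) and ENSMUSG00000026043 by -5.80 (SE 0.0737). Each had an adjusted p of 4.35e-15 or less by edgeR. By share of counts assigned to different genes, CT26 and MC38 lay 19.6 to 20.4% apart with TAK-981, while TAK-981 and DMSO libraries lay 3.75 to 5.07% apart in CT26 and 6.29 to 8.20% apart in MC38.

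**Figure D5:**
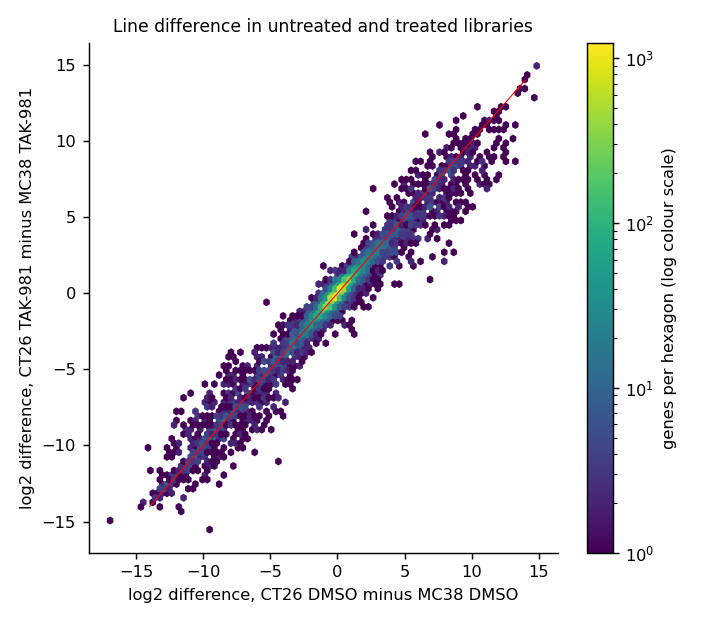
Difference between CT26 and MC38 on the log2 scale in the TAK-981 libraries (vertical axis) against the DMSO libraries (horizontal axis), with genes counted in hexagons on a log colour scale and a red line where both are equal. Genes tested in both (12844) lie along the line, and 82 were called in opposite directions.

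The deposited files also allow a second property to be compared, the length of the transcripts that a gene's reads came from. The count of a gene divided by its FPKM gives the transcript length that the authors' estimate implies, and where a gene makes transcripts of several lengths this moves with their mix. It was computed for 8942 genes with at least 100 counts in each of the 6 libraries, and tested in 8157 whose implied length varied by over 1% between libraries. This comparison was added after the files were seen. Implied length was called different in 489 genes, 5.99% of those tested (limma, Benjamini-Hochberg adjusted p under 0.05). The implied length was longer in CT26 for 233 of them and shorter for 256. The call count fell by over 1.5 times without CT26 DMSO replicate 5 (297), MC38 DMSO replicate 5 (306) or MC38 DMSO replicate 6 (313). The count of longer transcripts fell by over 1.5 times without any of the libraries, to 153, 117 and 150 without CT26 DMSO replicates 4, 5 and 6 and to 147, 155 and 136 without MC38 DMSO replicates 4, 5 and 6. The count of shorter transcripts did so without MC38 DMSO replicate 5 (151). Genes were kept on the spread of the same length that was then tested. With all 8942 genes kept, 475 were called, 230 longer and 245 shorter in CT26.

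Most of these changes in length were slight, with a median size of 0.13 on the log2 scale. At least 1.5-fold, 7 genes had longer and 15 had shorter implied transcripts in CT26, and the largest difference was 2.31 on the log2 scale. These counts move with the minimum count: 12 genes were longer with at least 50 counts per library, and 1 was longer and 5 were shorter with at least 500. Of 484 length calls that could be tested in the TAK-981 libraries, 231 were called in the same direction and 2 in the opposite one, and 454 had the same sign. In those libraries 5.95% of 7778 genes were called. Of the 489 genes, 88.8% were also called in level, against 81.4% of the other genes tested for length. At 2-fold or more the shares were 22.5% and 12.6%. These sets were not matched for count, and a link between length and level was not tested. In 55 genes the length was called and the level was not. Fractional counts were present in 30.9% of the 489 genes and in 20.1% of the others, and their part in the length calls was not tested.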

How the data were processed

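Per the labels' protocols, RNA came from RNeasy columns and TruSeq libraries of poly(A) RNA were sequenced as read pairs on a NovaSeq. Aligner, counter, build, annotation and use of strand are not stated in the labels or headers. Reads of overlapping genes, and of a gene and its antisense partner, may therefore be mixed. Each table holds 2 measures, per the file headers. The expected counts deposited by the authors are not normalized and not always whole. The FPKM values deposited by the authors are scaled by gene length and library size. They were used for levels between genes, for implied length and in alternatives.

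Estimated counts of the 6 libraries were rounded and fitted in edgeR 4.0.16 under R 4.3.3, by the quasi-likelihood F-test after TMM normalization. Genes of low count were removed by filterByExpr, set to a minimum count of 10 and a minimum total of 15. Genes with an adjusted p under 0.05 were called. Printed CPM are scaled by TMM over the 24 mouse libraries. Implied lengths, scaled to a common median, were tested with limma 3.58.1 on the log2 scale. The code was tested on simulated data. No 2 libraries of a line were duplicates: their counts had a chi-square of 2.9 to 6.86 per degree of freedom. Same-numbered DMSO libraries of the lines did not deviate together (correlations 0.028, -0.00233 and 0.0717), so numbers were not taken as pairs. For the TAK-981 libraries, also fitted without pairs, the correlations were 0.0926, 0.197 and -0.106.

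The comparison, the gene lists and the rule for named genes were chosen with earlier results of these data known. That rule took the highest mean CPM in the higher line among calls of 16-fold or more without overlap, at most 2 each way for unnamed identifiers. Of 706 memberships in 30 gene lists 0 could be matched, and no table used here places the identifiers on chromosomes, so the planned counts by list and by chromosome were not made. Alternatives in scaling, filter, tool, pseudocount and library choice were tried.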

Additional observations from a re-analysis of the deposited data

How the results depend on the processing

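The 10490 calls became 10491 with RLE and 10493 with total-count scaling, and 10013 with DESeq2 1.42.0. They became 11814 of 21418 genes tested without a filter on low counts. With at least 1 CPM in 3 libraries 9940 of 12125 were called, and with fractional-count genes left out 8200 of 9906. The main fit tested 13029 genes. Leaving out 1 library gave 10225 to 10514 calls, 4986 to 5083 of them higher and 5239 to 5431 lower in CT26. At 2-fold these were 1810 to 1895 higher and 2135 to 2244 lower, and at 16-fold 590 to 627 and 824 to 900. In the TAK-981 libraries they were 9673 to 10167 calls, 4655 to 4885 higher and 5018 to 5293 lower. At 2-fold they were 1865 to 1931 and 2220 to 2377, and at 16-fold 526 to 564 and 882 to 961. Fits without 1 library tested more genes, 13275 to 13327 against 13029 in DMSO and 13386 to 13511 against 13192 in TAK-981 libraries. The ranges therefore mix a change of gene set with the loss of a library.

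Counts of large differences depend on how low values are treated. Without a filter on low counts 1324 of 21418 genes tested were at least 16-fold lower in CT26. On log2(FPKM + 0.1) with limma, 350 genes were at least 16-fold higher and 449 lower, and on log2(FPKM + 1) 113 and 89, so that the larger number changed direction, with 1297 at least 2-fold lower. A pseudocount shrinks the differences of low genes by construction. With the replicate block 10480 genes were called in DMSO and 10176 in TAK-981 libraries. Total-count scaling gave 4934 higher and 5559 lower.

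For implied length, leaving out 1 library gave 297 to 346 calls, 117 to 155 longer and 151 to 196 shorter in CT26, with 6 to 9 and 12 to 17 at 1.5-fold. With at least 50 counts per library 12 genes were at least 1.5-fold longer, and with at least 500 counts 1 was longer and 5 were shorter. The split of CT26 and A20 from MC38 and B16F10 held 201 genes at 2-fold and 83 at 16-fold, with 138 to 141 at 4-fold without 1 library. The reverse split held 415 genes at 2-fold and 182 at 16-fold, with 276 to 285 at 4-fold without 1 library. The length and split alternatives were chosen after seeing the data. The alternatives planned for gene lists were not run. The 4 identifiers kept their direction and call in the alternatives that gave them a value. ENSMUSG00000091957 and ENSMUSG00000044533 have no value with fractional-count genes left out. Tested against a 2-fold difference, 578 genes were called at 16-fold or more higher in CT26 and 814 lower, the same numbers as in the main test. Values of the 4 identifiers in that test were not kept singly.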
